A study of Mus musculus with 18 samples.

Results

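Heme synthesis was followed through 8 genes of mouse macrophages, 7 enzymes of the pathway (Alas1, Alad, Uros, Urod, Cpox, Ppox and Fech) and the porphyrin transporter Abcb6. They were chosen by gene symbol and are 8 of 22485 genes measured, read by 9 of 44397 features. Alas1 had 2 probes and each of the other 7 genes had 1. The cells were macrophages grown from the bone marrow of mice aged 8 to 10 weeks, in M-CSF at 10 ng/ml for 7 days. There were 5 Nrf2-/- samples with heme-albumin at 200 µM for 4 h and then LPS for 4 h, 3 Nrf2+/+ samples with the same treatment, 4 Nrf2-/- samples with LPS for 4 h, 3 Nrf2+/+ samples with LPS for 4 h, and 3 Nrf2+/+ samples with albumin alone for 4 h. LPS was given at 10 ng/ml per the treatment protocol. No Nrf2-/- sample analysed here was without LPS, and no sample had heme without LPS. All of these cells were cultures of marrow-derived macrophages, so none is a tissue macrophage. Each of the 18 arrays set 1 sample in Cy5 against untreated macrophage RNA in Cy3, and all values below are log2 ratios of the sample over that reference.

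Heme is made in a chain of reactions that begins and ends in the mitochondrion. ALAS1 joins glycine and succinyl-CoA in the first and rate-limiting step outside the red cell lineage, and heme itself holds this enzyme down. ALAD, UROS and UROD work in the cytosol and build the porphyrin ring, CPOX and PPOX oxidise it on return to the mitochondrion, and FECH, the ferrochelatase, inserts iron. ABCB6 carries porphyrins across membranes. NRF2, encoded by Nfe2l2, is a transcription factor of the antioxidant response, and FECH and ABCB6 have been described as its targets in human cells. Macrophages take up large amounts of heme from red cells, and they degrade it through heme oxygenase.

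The arrays varied in how many features were listed at exactly 0, between 17.9% and 48.8%, and the 4 LPS-treated arrays lettered a together with Nrf2+/+ heme and LPS array c were those above 40%. No probe of the 8 genes was at 0 on any array. Across genes, correlations between arrays of 1 group ran from 0.555 to 0.895. The targeted gene Nfe2l2 had a ratio of exactly 0 on each of the 9 Nrf2-/- arrays and also on 2 albumin arrays; no source used here places its probe against the deleted part. Nqo1, a textbook NRF2 target, averaged 0.46 ± 0.47 in Nrf2-/- heme and LPS samples (SD, n = 5) and 3.18 ± 0.34 in Nrf2+/+ ones (n = 3). Of 8 macrophage markers none was at 0 on any array. Of 9 erythroid markers, which mark cells that make heme at a high rate, Gata1 was at 0 on 16 of 18 arrays and Alas2, the erythroid form of the first enzyme, on 12. The other 7 were at 0 on fewer arrays, with Epor and Tfrc on none, Slc4a1 on 2, Ank1 on 3, Hba-a1 on 6, and Hbb-b1 and Klf1 on 8 each. The precision is limited by the number of arrays, 3 to 5 in a group. The design text calls the replicates independent and biological.

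Heme before LPS changed 3 of the 8 genes in wild type and 1 in the knockout. In Nrf2+/+ cells Abcb6 rose 6.21-fold and Fech rose 2.69-fold over LPS alone, and Ppox fell. In Nrf2-/- cells Abcb6 rose 3.40-fold, and no other of the 8 genes passed the test (limma, adjusted p under 0.05 over all genes). The heme effect on Fech differed between the genotypes. Alad, Uros, Urod and Cpox passed the test in neither genotype. Of the 8 genes 2 were called higher and 1 lower in Nrf2+/+ cells, where limma called 8.34% of all genes higher and 6.35% lower, together 14.7%. The knockout had 1 of 8 called higher and none lower, where 4.1% of all genes were called higher and 2.67% lower, together 6.77%. The median difference over the 8 genes was 0.34 in Nrf2+/+ cells and -0.09 in Nrf2-/- cells, against 0.00 over all genes in both. In these whole cultures, fewer cells of a type and less RNA per cell cannot be told apart. By the labels the heme samples spent 4 h longer in treatment than the LPS samples, whose labels name no albumin, so that albumin and time may differ along with heme. Of 7 neutrophil markers 1 was called higher with heme in Nrf2-/- and 2 in Nrf2+/+ cells, and their ratios summed to 13.8 to 25.9 in Nrf2-/- heme and LPS samples against 8.12 to 15.3 in Nrf2-/- LPS samples, and to 15.3 to 33.9 in Nrf2+/+ heme and LPS samples against 8.20 to 15.2 in Nrf2+/+ LPS samples. The sum over 9 erythroid markers was 7.44 to 11.8 in Nrf2-/- heme and LPS samples and 7.62 to 12.1 in Nrf2-/- LPS samples. It was 7.30 to 16.7 in Nrf2+/+ heme and LPS samples and 8.73 to 11.0 in Nrf2+/+ LPS samples. In each genotype 1 erythroid marker was called lower with heme. Of 8 macrophage markers 2 were called lower with heme in Nrf2+/+ cells and none in Nrf2-/- cells. Their ratios summed to 6.78 to 10.48 in Nrf2+/+ heme and LPS samples against 12.1 to 12.6 in Nrf2+/+ LPS samples, with no overlap, and to 9.28 to 17.2 in Nrf2-/- heme and LPS samples against 9.24 to 13.01 in Nrf2-/- LPS samples. In these sums a marker listed at exactly 0 adds a ratio of 1, and a strongly raised marker can dominate. On the log2 scale Cd14 reached 3.14 and S100a8 reached 4.14. The sums are thus not amounts of a cell type. The part of these markers in the results was not tested.

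**Figure D1:**
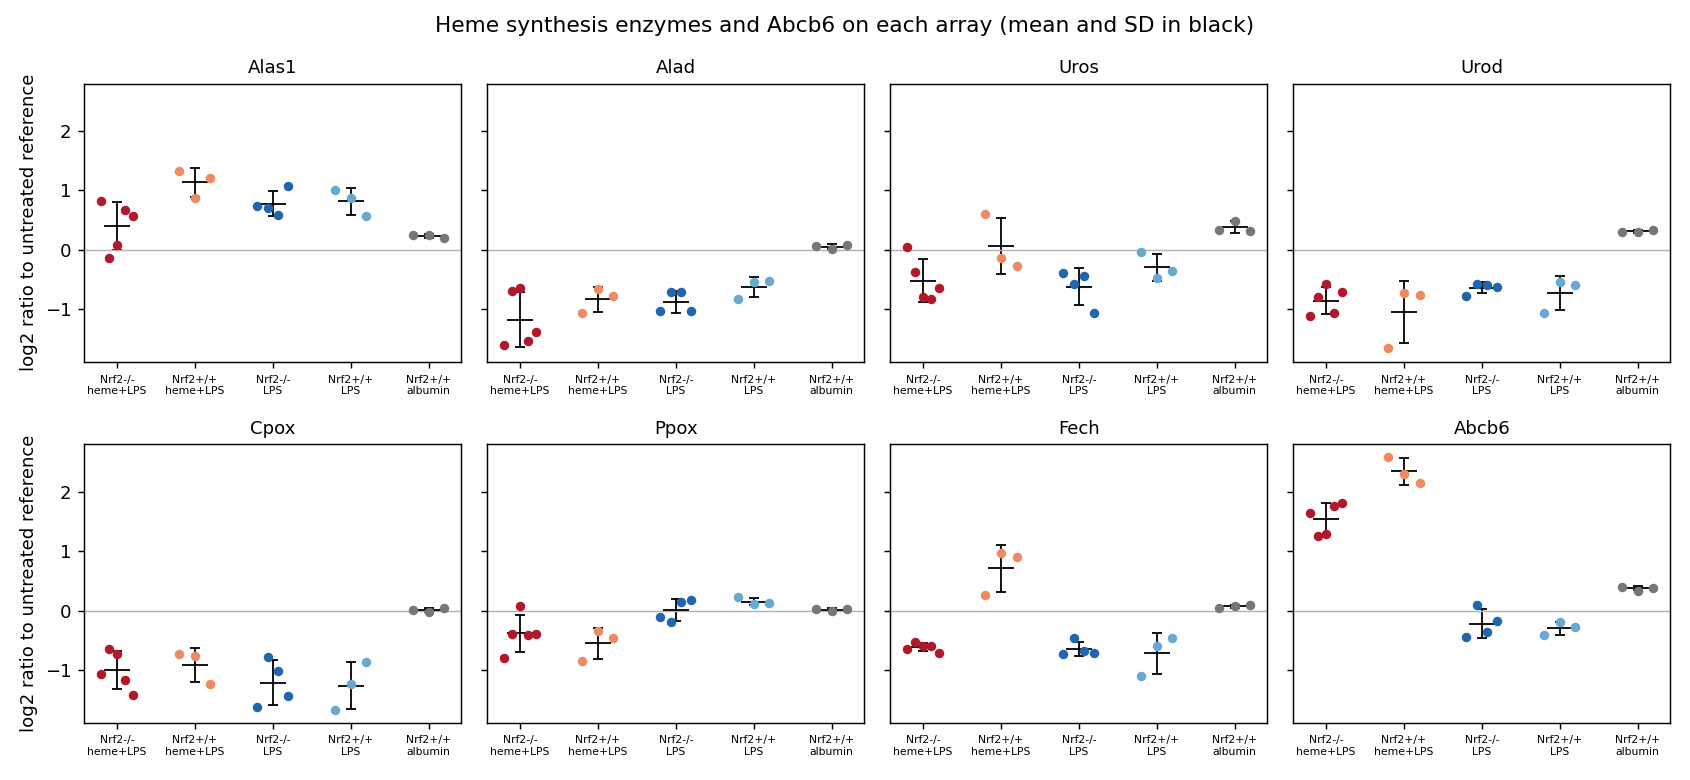
Log2 ratio to the untreated reference on each array (points) for the 7 enzymes in pathway order and Abcb6, with the group mean and SD in black, for 5 Nrf2-/- heme and LPS, 3 Nrf2+/+ heme and LPS, 4 Nrf2-/- LPS, 3 Nrf2+/+ LPS and 3 Nrf2+/+ albumin samples. Abcb6 stood between 1.25 and 2.58 on every heme-treated array and at 0.10 or below on every array with LPS alone, and Fech was above 0 on the 3 Nrf2+/+ heme and LPS arrays and below 0 on the 5 Nrf2-/- ones.

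Abcb6, which moves porphyrins, had the largest heme effect of the 8 genes in both genotypes. On the Nrf2+/+ heme and LPS arrays it stood at 2.58, 2.29 and 2.15, against -0.41, -0.19 and -0.28 on the Nrf2+/+ LPS arrays. On the Nrf2-/- heme and LPS arrays it stood at 1.63, 1.25, 1.29, 1.75 and 1.82, against -0.45, 0.10, -0.35 and -0.18 on the Nrf2-/- LPS arrays. All heme-treated arrays were thus above all arrays with LPS alone. The difference was 2.63 ± 0.17 in Nrf2+/+ cells (SE, limma adjusted p = 3.24e-07) and 1.77 ± 0.14 in Nrf2-/- cells (adjusted p = 8.48e-06). The heme effect was smaller in the knockout by 0.87 on the log2 scale (-0.87 ± 0.22, 95% interval -1.34 to -0.40), which did not pass the test over all genes (adjusted p = 0.0954), while under quantile normalization it was -1.10 and passed (adjusted p = 0.0117). Under heme and LPS, Abcb6 was lower in Nrf2-/- than in Nrf2+/+ cells, at 1.55 ± 0.26 (SD, n = 5) against 2.34 ± 0.22 (n = 3), with no overlap and a difference of -0.79 ± 0.15 (SE, adjusted p = 0.00577). This call was lost without the 5 arrays that had over 40% of features at 0 (-0.77, adjusted p = 0.107) and when the fit held only the arrays of the comparison (adjusted p = 0.105).

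The Abcb6 promoter is shown because this gene carried the largest change; the window runs from 250 bases before to 50 bases after the transcript start in RefSeq, on the minus strand of GRCm38.p6 at chr1:75180343-75180642. Capitals mark the GC boxes (GGGCGG on either strand), which 35.7% of 32851 such windows of mouse genes hold.
Abcb6: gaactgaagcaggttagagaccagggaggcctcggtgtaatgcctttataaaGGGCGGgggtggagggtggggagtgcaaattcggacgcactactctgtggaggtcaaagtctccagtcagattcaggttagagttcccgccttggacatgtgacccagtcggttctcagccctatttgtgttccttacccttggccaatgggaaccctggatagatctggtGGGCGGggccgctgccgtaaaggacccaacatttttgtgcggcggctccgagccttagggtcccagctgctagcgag
The core of the antioxidant response element to which NRF2 binds (TGACNNNGC on either strand) had no match in this window, nor in any window of the 7 genes with a promoter entry, and 12.4% of all windows hold it. These letters were searched in 300 bases only. Fech was the gene without a promoter entry, so its promoter was not searched for any of these letters.

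Fech, which closes the pathway by inserting iron, rose with heme in Nrf2+/+ cells, and its heme effect differed between the genotypes. It stood at 0.26, 0.98 and 0.89 on the Nrf2+/+ heme and LPS arrays, against -1.11, -0.59 and -0.45 on the Nrf2+/+ LPS arrays. On Nrf2-/- arrays it stood at -0.64, -0.52, -0.59, -0.60 and -0.71 with heme and LPS, against -0.73, -0.47, -0.68 and -0.71 with LPS alone. The wild-type groups were apart, with array a the lowest of each, while the knockout groups covered the same range. The difference in Nrf2+/+ cells was 1.43 ± 0.17 (SE, adjusted p = 6.24e-05), between 1.23 and 1.65 with any 1 of the 18 arrays left out. With only the 6 arrays of this comparison in the fit the same difference had an adjusted p = 0.0594. In Nrf2-/- cells the difference was 0.03 ± 0.14 (adjusted p = 1), with a 95% interval of -0.27 to 0.34, which leaves out a change of the wild-type size. The genotypes differed in the heme effect by -1.39 ± 0.22 (interaction, adjusted p = 0.00678), and this was the 1 interaction called among the 8 genes, against a background of 0.947% of all genes. Under heme and LPS the level in Nrf2-/- cells was -0.61 ± 0.07 (SD, n = 5) against 0.71 ± 0.39 (n = 3) in Nrf2+/+ cells, a difference of -1.32 ± 0.16 (SE, adjusted p = 0.000141).

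**Figure D2:**
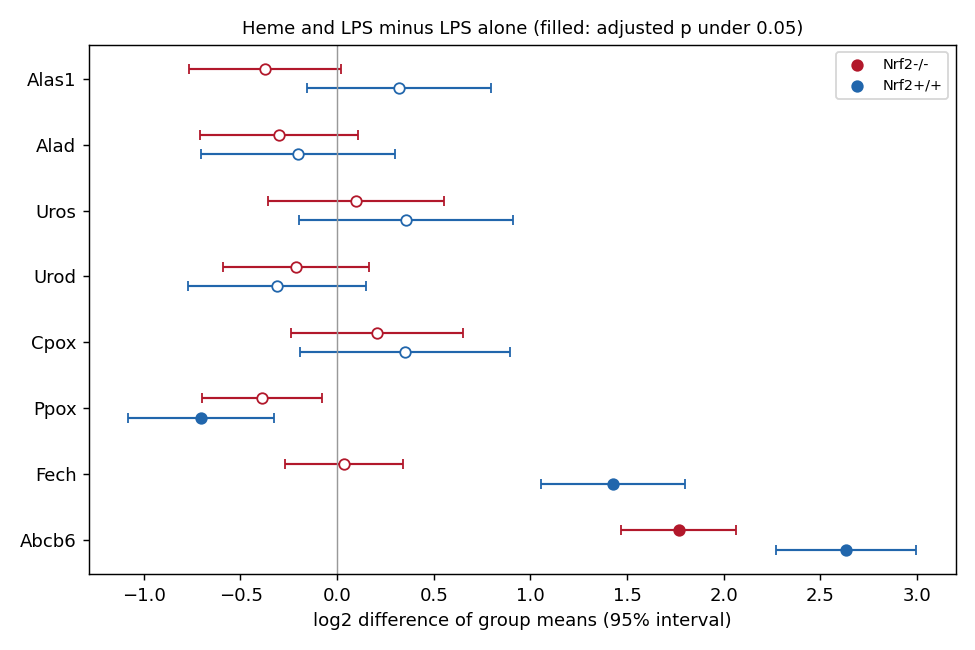
Difference of group means (log2) between heme and LPS and LPS alone for each gene, with the 95% interval of the limma fit, in Nrf2-/- (red, upper) and Nrf2+/+ cells (blue, lower); filled points passed an adjusted p of 0.05. Fech lies at 0.03 in Nrf2-/- and 1.43 in Nrf2+/+ cells, and the intervals of Alad, Uros, Urod and Cpox include 0 in both.

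Ppox, the oxidase of the step before ferrochelatase, was the 1 gene that fell with heme in wild type. Its log2 ratio was -0.84, -0.35 and -0.46 on the Nrf2+/+ heme and LPS arrays, against 0.23, 0.10 and 0.13 on the Nrf2+/+ LPS arrays. Every heme-treated wild-type array was below every other wild-type array. The difference was -0.70 ± 0.18 (SE, adjusted p = 0.0131). Without the heme and LPS array a it was -0.56 (adjusted p = 0.0644), without the LPS-treated arrays lettered a it was -0.52 (adjusted p = 0.0743), and without the 5 arrays with over 40% of features at 0 it was -0.47 (adjusted p = 0.24), so that the call depended on these arrays. In Nrf2-/- cells Ppox stood between -0.79 and 0.08 with heme and LPS, against -0.19 to 0.18 with LPS alone. That difference was -0.39 ± 0.14 (adjusted p = 0.147), and without the Nrf2-/- heme and LPS array c it was -0.51 and passed (adjusted p = 0.0253). The heme effects of the genotypes differed by 0.31 ± 0.23 (adjusted p = 0.886).

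Alas1, the first and rate-limiting enzyme, gave a different answer with each of its 2 probes, both of which the annotation ties to the same transcript. Probe 405 stood at 1.55, 1.05 and 1.32 on the Nrf2+/+ heme and LPS arrays, against 0.52, 0.39 and 0.07 on the Nrf2+/+ LPS arrays. On the Nrf2-/- heme and LPS arrays it stood at 0.39, -0.93, -0.89, -0.21 and -0.45, against 0.32, 0.02, -0.13 and 0.42 on the Nrf2-/- LPS arrays. By this probe Alas1 was thus high in wild type with heme, and 4 of the 5 heme-treated knockout arrays were below the reference. Probe 26325 stood at 1.1, 0.68 and 1.11 on the Nrf2+/+ heme and LPS arrays, against 1.5, 1.34 and 1.08 on the Nrf2+/+ LPS arrays. It ran from 0.65 to 1.59 on the Nrf2-/- heme and LPS arrays, against 1.15 to 1.73 on the Nrf2-/- LPS arrays. By this second probe heme and genotype groups overlapped, and all LPS-treated arrays were above the reference.

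The fit over all 44397 features gave each Alas1 probe its own test. By probe 405 heme raised Alas1 in Nrf2+/+ cells by 0.98 ± 0.28 (SE, adjusted p = 0.0331; 12.2% of features were called), a call that was lost in 5 of 18 fits that left out 1 array (those without Nrf2+/+ heme and LPS array a or c or without any 1 Nrf2+/+ LPS array, adjusted p of up to 0.128), under quantile normalization (adjusted p = 0.139) and without the 5 arrays with over 40% of features at 0 (adjusted p = 0.174). Its heme effect in Nrf2-/- cells was -0.58 ± 0.23 (adjusted p = 0.22; 5.23% of features were called), and without Nrf2-/- heme and LPS array a it was -0.78 and passed (adjusted p = 0.0216). Under heme and LPS this probe was lower in Nrf2-/- than in Nrf2+/+ cells, with a difference of -1.73 ± 0.25 (adjusted p = 0.00102; 4.35% of features were called), and the call held with any 1 array left out, with differences of -1.93 to -1.60. The heme effects of the genotypes differed by -1.56 ± 0.36, which did not pass (adjusted p = 0.0776), but passed without Nrf2-/- heme and LPS array a (-1.76, adjusted p = 0.00831) and with the 4 lettered-a arrays of the LPS-treated groups left out (-1.68, adjusted p = 0.0444), where 0.784% of features were called with all arrays. By probe 26325 the same genotype difference under heme and LPS was 0.26 ± 0.20 (adjusted p = 0.623) and the heme effect in Nrf2+/+ cells was -0.34 ± 0.22 (adjusted p = 0.453). The log2 ratio of probe 405 minus that of probe 26325 averaged -1.64 ± 0.47 in Nrf2-/- heme and LPS samples (SD, n = 5) and 0.34 ± 0.13 in Nrf2+/+ heme and LPS samples (n = 3). It averaged -1.24 ± 0.28 in Nrf2-/- LPS samples (n = 4), -0.98 ± 0.03 in Nrf2+/+ LPS samples (n = 3) and -0.14 ± 0.05 in albumin samples (n = 3). Averaged over both probes Alas1 changed with heme in neither genotype by the test (0.32 ± 0.22, adjusted p = 0.475, in Nrf2+/+ and -0.37 ± 0.18, adjusted p = 0.322, in Nrf2-/- cells). No source used here gives the position of the probes in the transcript, and the cause of their disagreement was not tested.

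**Figure D3:**
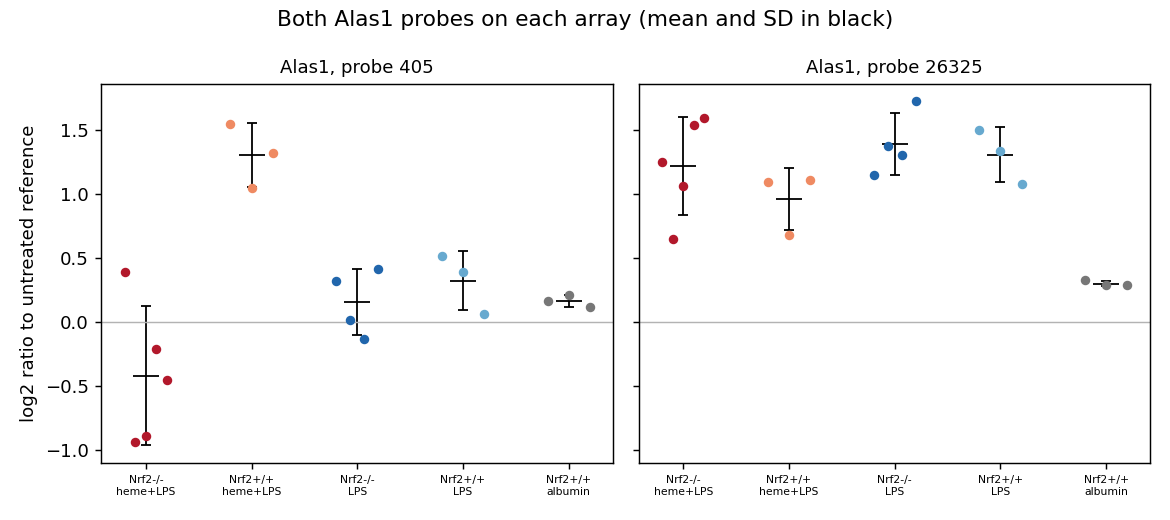
Log2 ratio to the untreated reference of the 2 Alas1 probes on each array (points), with group mean and SD in black, for the same 5 groups. Probe 405 averages -0.42 in Nrf2-/- and 1.31 in Nrf2+/+ heme and LPS samples, while probe 26325 averages 1.22 in Nrf2-/- and 0.97 in Nrf2+/+ heme and LPS samples.

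The cytosolic enzymes Alad, Uros and Urod and the mitochondrial oxidase Cpox showed no called heme effect. For Alad, which condenses 5-aminolevulinate to the pyrrole unit, the heme effect was -0.30 ± 0.19 in Nrf2-/- cells (95% interval -0.71 to 0.11) and -0.20 ± 0.23 in Nrf2+/+ cells (-0.70 to 0.30). For Uros, which closes the ring, it was 0.10 ± 0.21 (-0.36 to 0.56) in Nrf2-/- and 0.36 ± 0.26 (-0.20 to 0.91) in Nrf2+/+ cells. Urod, which decarboxylates the ring, had -0.21 ± 0.18 (-0.59 to 0.16) in Nrf2-/- and -0.31 ± 0.21 (-0.77 to 0.15) in Nrf2+/+ cells. These intervals reach from -0.77 to 0.91, and each includes 0. For Cpox the effect was 0.21 ± 0.21 (-0.24 to 0.65) in Nrf2-/- and 0.35 ± 0.25 (-0.19 to 0.89) in Nrf2+/+ cells. None of the 4 had a called interaction (adjusted p = 0.973 to 1). Uros was spread widely under heme, with 0.61, -0.14 and -0.27 on the Nrf2+/+ arrays, where array a stood alone above the reference.

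LPS alone, compared with albumin in Nrf2+/+ cells, lowered most of the pathway. Cpox, Urod, Fech, Alad and Abcb6 fell, no gene was called higher, and Alas1, Uros and Ppox were not called. Of the 8 genes 5 were called lower, where limma called 16.3% of all genes lower and 12.3% higher, together 28.6%. The median difference over the 8 genes was -0.67, against 0.00 over all genes, a weak background as said above. The labels name albumin for the albumin samples and LPS for the LPS samples, both for 4 h, so the comparison may hold the absence of albumin as well. Markers also moved in this comparison: 3 of 8 macrophage markers and 1 of 9 erythroid markers were called higher, and of 7 neutrophil markers 1 was called higher and 1 lower. The macrophage markers summed to 12.1 to 12.6 with LPS against 5.87 to 5.93 with albumin, the erythroid ones to 8.73 to 11.0 against 11.2 to 13.02, and the neutrophil ones to 8.20 to 15.2 against 7.39 to 8.44. As above, such sums are not amounts of a cell type. The part of the markers in the result was not tested.

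Cpox fell most under LPS. It stood at -1.67, -1.23 and -0.87 on the LPS arrays, against 0.01, -0.03 and 0.04 on the albumin arrays, a difference of -1.27 ± 0.25 (SE, adjusted p = 0.00157). Urod stood at -1.05, -0.54 and -0.59 with LPS, against 0.29, 0.30 and 0.34 with albumin, a difference of -1.04 ± 0.21 (adjusted p = 0.00198). In both genes the LPS array a was the lowest, and both groups were apart. Fech fell by 0.79 on the log2 scale (-0.79 ± 0.17, adjusted p = 0.0032), to -0.72 ± 0.34 with LPS against 0.07 ± 0.03 with albumin (SD, n = 3 each). Abcb6 averaged -0.29 ± 0.11 with LPS against 0.38 ± 0.03 with albumin, a difference of -0.67 ± 0.17 (SE, adjusted p = 0.00781). These 4 calls held with any 1 of the 18 arrays left out. The call of Alad did not: its difference was -0.68 ± 0.23 (adjusted p = 0.0409), and it was lost in 7 of 18 such fits, among them each fit without 1 array of the comparison (adjusted p of up to 0.135).

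Uros stood at -0.04, -0.48 and -0.36 with LPS, against 0.33, 0.49 and 0.31 with albumin, and missed the threshold (-0.67 ± 0.26, adjusted p = 0.0694); it passed with quantile normalization (adjusted p = 0.0417), with only the arrays of the comparison (0.0192) and without the LPS-treated arrays lettered a (0.00823). Ppox differed by 0.13 ± 0.18 (adjusted p = 0.653), with an interval of -0.24 to 0.51. The mean of both Alas1 probes was higher under LPS in each array, at 1.01, 0.87 and 0.57 against 0.25, 0.25 and 0.20 with albumin, but was not called (0.58 ± 0.22, adjusted p = 0.065; 0.0217 with only the arrays of the comparison and 0.045 with each array centred on its median). Here too the probes parted. Alas1 probe 26325 rose under LPS by 1.01 ± 0.22 (adjusted p = 0.00337; 25.4% of features were called), and probe 405 differed by 0.16 ± 0.28 (adjusted p = 0.785). For all 8 genes the LPS and albumin arrays did not overlap, including Alas1, Uros and Ppox, which were not called; of all genes 47.2% did not overlap and 28.6% were called. Alas1 probe 405 taken alone did overlap.

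**Figure D4:**
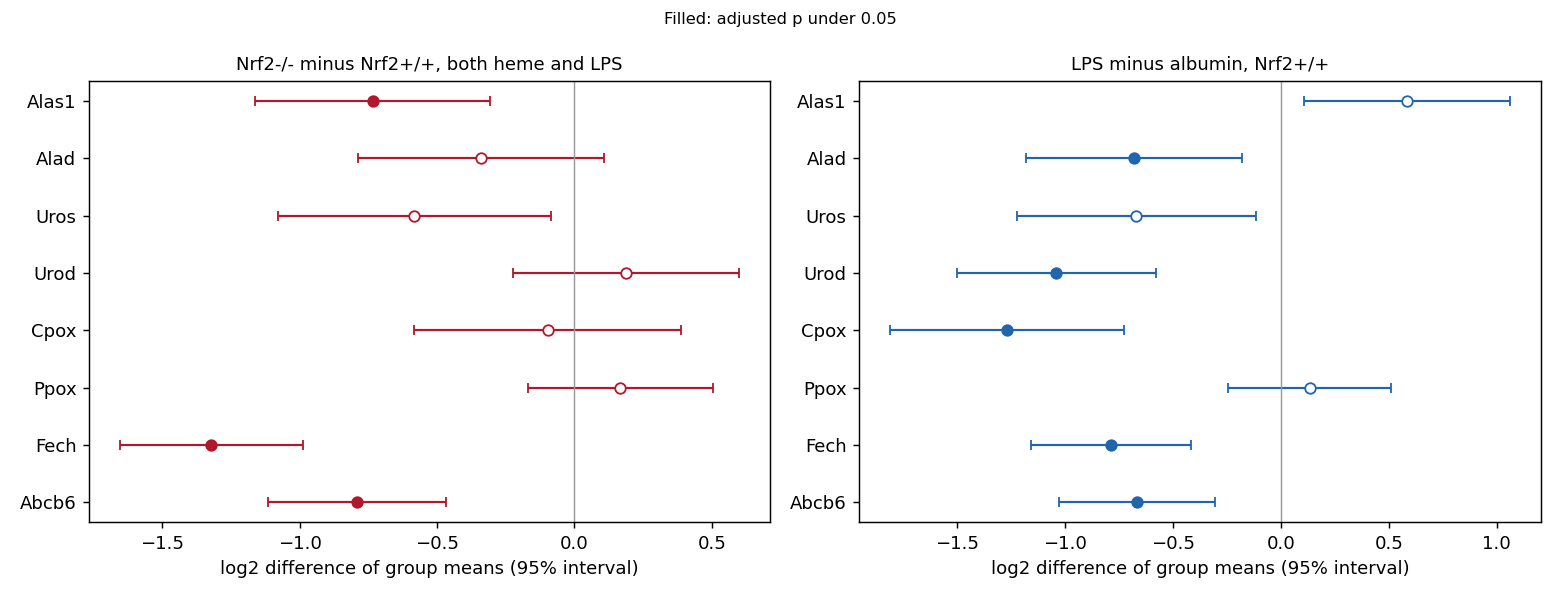
Difference of group means (log2) with the 95% interval of the limma fit, left for Nrf2-/- minus Nrf2+/+ under heme and LPS, right for LPS minus albumin in Nrf2+/+ cells; filled points passed an adjusted p of 0.05. On the left Fech (-1.32) and Abcb6 (-0.79) lie lowest with Alas1 (-0.73, the mean of 2 probes that disagree), and on the right Cpox (-1.27) and Urod (-1.04).

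The Urod promoter is shown because Urod fell under LPS and its window holds a site that other genes of the pathway share; its window lies on the minus strand of GRCm38.p6 at chr4:116994364-116994663. Capitals mark an E-box (CACGTG, its own reverse complement), the site of basic helix-loop-helix factors, which 7.15% of all windows hold. Windows of Alad, Urod and Uros hold it, 3 of the 7 genes with a window, though the share above is per window and not per gene. Alas1, Alad and Uros have 2 windows each, and 1 of the 2 Uros windows holds it. Cpox, which fell most, and Abcb6, which also fell, do not hold it, and Uros was not called under LPS.
Urod: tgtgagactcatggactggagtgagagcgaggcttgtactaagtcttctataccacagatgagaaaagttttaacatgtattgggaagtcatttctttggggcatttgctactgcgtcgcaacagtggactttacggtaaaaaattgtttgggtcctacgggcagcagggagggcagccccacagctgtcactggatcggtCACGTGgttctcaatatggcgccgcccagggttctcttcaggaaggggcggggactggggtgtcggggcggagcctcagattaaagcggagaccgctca

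The knockout itself was compared with wild type under LPS alone and under heme and LPS. Under LPS alone none of the 8 genes was called and none had an unadjusted p under 0.05; limma called 0.00445% of all genes (0.0045% of features in the fit over probes), and 557 genes had an unadjusted p under 0.05. The differences ran from -0.33 ± 0.24 for Uros (adjusted p = 1) to 0.09 ± 0.20 for Urod. Fech averaged -0.64 ± 0.12 in Nrf2-/- LPS samples (SD, n = 4) and -0.72 ± 0.34 in Nrf2+/+ LPS samples (n = 3), with an interval of the difference of -0.28 to 0.42. Under heme and LPS 3 of 8 genes were called lower in Nrf2-/- cells (Fech, Abcb6 and the mean of both Alas1 probes), where 3.16% of all genes were called lower and 2.13% higher, together 5.29%. The Alas1 mean differed by -0.73 ± 0.20 (adjusted p = 0.0465), a call kept in 4 of 18 fits with 1 array left out (adjusted p of up to 0.16), while probe 26325 by itself gave a difference of the other sign. Uros was at 0.04, -0.37, -0.79, -0.83 and -0.64 on the Nrf2-/- arrays, against 0.61, -0.14 and -0.27 on the Nrf2+/+ arrays, and was not called (-0.58 ± 0.23, adjusted p = 0.207).

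By level under heme and LPS in Nrf2+/+ cells the ratios to the reference ran from Abcb6 (2.34 ± 0.22) through Alas1 (1.14 ± 0.24), Fech (0.71 ± 0.39), Uros (0.07 ± 0.48), Ppox (-0.55 ± 0.26), Alad (-0.83 ± 0.21) and Cpox (-0.91 ± 0.29) to Urod (-1.04 ± 0.52; SD, n = 3). With the same treatment the order in Nrf2-/- cells was Abcb6 (1.55 ± 0.26), Alas1 (0.40 ± 0.41), Ppox (-0.38 ± 0.31), Uros (-0.52 ± 0.36), Fech (-0.61 ± 0.07), Urod (-0.85 ± 0.23), Cpox (-1.0 ± 0.32) and Alad (-1.17 ± 0.47; SD, n = 5). The place of Alas1 rests on the mean of 2 probes that disagree, at -0.42 ± 0.54 for probe 405 and 1.22 ± 0.39 for probe 26325 in Nrf2-/- cells, and by probe 405 it would stand below Ppox there. These are ratios of each gene to its own reference level, not levels set against each other. Neighbours in the order among Alad, Cpox and Urod differed by less than their SD in both genotypes.

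Genes that supply, use or control the pathway were counted from a list of 27, of which 24 were measured. With heme in Nrf2+/+ cells 8 of the 24 were called higher and 2 lower. In Nrf2-/- cells 4 were called higher and 1 lower, both against the shares of all genes given above. The median differences were 0.18 in Nrf2+/+ and 0.02 in Nrf2-/- cells, against 0.00 over all genes, the same weak background. Slc25a38, which brings glycine into the mitochondrion for the first step, rose with heme by 0.86 ± 0.16 in Nrf2-/- cells (adjusted p = 0.00473) and by 1.26 ± 0.20 in Nrf2+/+ cells (adjusted p = 0.000431). Under LPS against albumin it fell by 1.35 on the log2 scale (-1.35 ± 0.20, adjusted p = 0.000122), as most of the enzymes did. Pgrmc1, a heme-binding protein that associates with ferrochelatase, rose with heme by 1.32 ± 0.11 in Nrf2+/+ cells (adjusted p = 3.32e-06), and its heme effect was smaller in Nrf2-/- cells (interaction -1.03 ± 0.15, adjusted p = 0.00316). Pgrmc1 and Fech were thus both called in the interaction and in the same direction. The mitochondrial iron importers moved apart in wild type: Slc25a37, known as mitoferrin-1, rose by 1.08 ± 0.32 (adjusted p = 0.0336) and Slc25a28, mitoferrin-2, fell by 1.60 on the log2 scale (-1.60 ± 0.18, adjusted p = 2.64e-05). In Nrf2-/- cells Slc25a37 differed by 0.78 ± 0.26 with heme and was not called (adjusted p = 0.101). Its heme effect was not called different between the genotypes (interaction -0.30 ± 0.41, adjusted p = 0.974). The heme effect on Slc25a28 differed between the genotypes by 1.12 ± 0.23 (adjusted p = 0.0323). Pgrmc1 and Slc25a28 were the 2 interactions called of 24, where 0.24% of all genes were called higher and 0.707% lower.

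Of the genes of heme degradation and transport Hmox1, Slc48a1 and Blvrb rose with heme in both genotypes. Hmox1, heme oxygenase, rose with heme by 4.01 ± 0.28 in Nrf2-/- cells (adjusted p = 3.4e-06) and by 4.91 ± 0.34 in Nrf2+/+ cells (adjusted p = 6.43e-07). Slc48a1, which exports heme from the phagolysosome to the cytosol, rose by 2.21 ± 0.15 in Nrf2-/- cells and by 2.94 ± 0.19 in Nrf2+/+ cells (adjusted p = 3.4e-06 in Nrf2-/- and 3.23e-07 in Nrf2+/+ cells). Both also were lower in Nrf2-/- than in Nrf2+/+ cells under heme and LPS, with differences of -1.60 ± 0.31 for Hmox1 (adjusted p = 0.00588) and -0.81 ± 0.17 for Slc48a1 (adjusted p = 0.0103). Neither interaction was called, at -0.90 ± 0.44 for Hmox1 (adjusted p = 0.674) and -0.73 ± 0.24 for Slc48a1 (adjusted p = 0.281). Under LPS alone the genotype difference of Hmox1 was -0.70 ± 0.32, which was not called. Blvrb, a biliverdin reductase, rose by 1.28 ± 0.16 in Nrf2-/- cells (adjusted p = 0.000299) and by 1.48 ± 0.20 in Nrf2+/+ cells (adjusted p = 0.000132). Blvra, Flvcr1, Flvcr2 and Abcg2 were called in neither genotype. Cox15, which turns heme into heme A with Cox10, fell with heme, with differences of -0.66 ± 0.18 in Nrf2-/- cells (adjusted p = 0.0423) and -0.79 ± 0.22 in Nrf2+/+ cells (adjusted p = 0.0245). Foxo1, a transcription factor, rose with heme in Nrf2+/+ cells by 0.85 ± 0.20 (adjusted p = 0.00788). In Nrf2-/- cells it differed by 0.33 ± 0.16 (adjusted p = 0.33), and its interaction was not called (-0.53 ± 0.25, adjusted p = 0.661).

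Under LPS alone against albumin 3 of the 24 were called higher (Nrf1, Cox10 and Slc25a28) and 4 lower (Foxo1, Flvcr1, Slc48a1 and Slc25a38), 7 of 24 where 28.6% of all genes were called, a share near the background. The largest of these differences was -1.94 ± 0.20 for Foxo1 (adjusted p = 5.23e-06), and Flvcr1, a heme exporter, differed by -1.68 ± 0.38 (adjusted p = 0.00349). Between genotypes under heme and LPS 5 of the 24 were called, where 5.29% of all genes were. Slc25a28 was higher in Nrf2-/- cells, and Hmox1, Slc48a1, Pgrmc1 and Nfe2l2 were lower. Nfe2l2 is the targeted gene itself, at exactly 0 on each Nrf2-/- array. In Nrf2+/+ cells it rose with heme by 0.94 ± 0.19 (adjusted p = 0.00394). Its genotype difference under LPS alone had the other sign, at 0.29 ± 0.18, and was not called. What its call under heme and LPS reflects was not tested. Under LPS alone none of the 24 was called, where 0.00445% of all genes were.

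The genes most like each called member were found by the root mean square difference of the log2 ratio over all 18 arrays, among 13170 genes. For Fech they were Cep20 (0.227), Abcb4 (0.231) and Gm10638 (0.244). For Abcb6 they were Hsf2 (0.281), Pir (0.315) and Zwint (0.38). Pir, which encodes pirin, averaged 1.44 ± 0.26 in Nrf2-/- heme and LPS samples (SD, n = 5) and 2.27 ± 0.30 in Nrf2+/+ ones (n = 3). For Ppox they were Scap (0.148), Lmnb2 (0.184) and Nit2 (0.189).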

How the data were processed

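Each array's deposited column holds a log10 ratio, sample (Cy5) over untreated macrophages (Cy3), made with Agilent Feature Extraction 10.5.1.1 per the submitters' processing notes. The labels do not state the log base, which was taken from how the numbers look and how far they reach; no source used here gives the dye or background correction or the reference's genotype. Of 44397 features 33026 carried a symbol; the RefSeq table held the gene identifiers of 32438 of these probes and changed 0 symbols. Ratios were converted to log2, and probes sharing a symbol were averaged. Group means of all 18 arrays were fitted with limma 3.58.1 (lmFit, eBayes) in R 4.3.3, two-sided, with p-values adjusted over all genes of a comparison (Benjamini-Hochberg) and called under 0.05; the fit was tested on simulated data. A separate fit over features was added for the Alas1 probes after they were seen to disagree. Arrays with the same letter deviated together in the Nrf2-/- heme comparison (correlations of 0.216 to 0.586) and between genotypes (0.228 to 0.533 with heme and LPS, 0.196 to 0.579 with LPS). Between Nrf2+/+ heme and LPS and Nrf2+/+ LPS only letter a did (0.476, against 0.0121 for b and 0.0143 for c), and against albumin none did. The letters are not stated to mark a shared animal, batch or day. From these correlations they were taken to pair samples in the Nrf2-/- heme comparison and in both comparisons between genotypes. The main fits held no term for the letters, and fits with a replicate block are given below. Promoter windows and their letters come from RefSeq on GRCm38.p6. All 8 genes were named in each comparison whatever their result; context genes given with values were called in at least 1 comparison, and the 3 nearest genes for each member called in a heme comparison, among genes at 0 on at most 3 arrays. Members, lists and rules were chosen with earlier results of these data known. Figures were drawn with matplotlib 3.10.9.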

Additional observations from a re-analysis of the deposited data

Results flagged for a closer look

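The heme effect on Fech differed between the genotypes by the interaction test, with a value of -1.39 ± 0.22 on the log2 scale (limma adjusted p = 0.00678). The difference between heme and LPS and LPS alone was 0.03 in Nrf2-/- cells and 1.43 in Nrf2+/+ cells. With any 1 of the 18 arrays left out the interaction ran from -1.62 to -1.20 and stayed called. None of the 8 genes, and neither Alas1 probe, had an array far enough from the others of its group to stand out by Dixon's test in the Nrf2-/- groups, the groups large enough for it. The test thus says nothing of the Nrf2+/+ groups, on which the Fech interaction also rests. There array a was the lowest for Fech, at 0.26 with heme and LPS and -1.11 with LPS alone.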

How the results depend on the processing

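With 3 to 5 arrays a group, a difference that was not called is bounded only by its interval. Of the 8 genes the number called for heme in Nrf2+/+ cells was 1 with only the arrays of that comparison in the fit (against 3), for heme in Nrf2-/- cells 2 without heme and LPS array c (against 1), and for the interaction 2 under quantile normalization (against 1). For Nrf2-/- against Nrf2+/+ under heme and LPS it was 1 with only its own arrays and 1 without the arrays with over 40% of features at 0 (against 3), the last chosen after seeing the data, as were the fits of each Alas1 probe. With 1 array left out, the number was 2 to 3 for heme in Nrf2+/+ cells, 1 to 2 for heme in Nrf2-/- cells, 1 for the interaction, 2 to 3 between genotypes under heme and LPS, 0 between genotypes under LPS and 4 to 7 for LPS against albumin.

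The replicate block on array letters changed no call in the 3 comparisons where letters were taken to pair the samples. It turned Cpox between genotypes under heme and LPS to 0.087 (adjusted p = 0.935). Where letters were taken as only a shared name, the block brought Alas1 (adjusted p = 0.0224) and Uros (0.0144) past the threshold for LPS against albumin.

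Signs that turned all belonged to differences without a call, apart from Alas1 between genotypes under heme and LPS. Its probe 26325 gave -0.34 for heme in Nrf2+/+ cells, 0.17 for the interaction, 0.26 between genotypes under heme and LPS and 0.084 under LPS. Centring on the median gave Fech -0.0093 for heme in Nrf2-/- cells. With the 4 lettered-a arrays of LPS-treated cells left out, the interaction was -0.017 for Urod and 0.036 for Cpox, the genotype difference under heme and LPS was -0.045 for Urod and 0.012 for Cpox, and under LPS it was 0.067 for Alas1, -0.028 for Urod, -0.024 for Cpox and -0.095 for Fech. Without the arrays over 40%, Urod had -0.037 in the interaction and -0.066 between genotypes under heme and LPS, and under LPS the same 4 values were found. With 1 array left out, Uros ran from -0.051 to 0.18 for heme in Nrf2-/- cells; interactions ran from -0.23 to 0.011 for Alad, -0.43 to 0.015 for Uros, -0.20 to 0.26 for Urod and -0.34 to 0.061 for Cpox. Genotype differences under heme and LPS ran from -0.11 to 0.35 for Urod and -0.26 to 0.0071 for Cpox, and under LPS from -0.16 to 0.054 for Alas1, -0.073 to 0.18 for Urod, -0.16 to 0.24 for Cpox, -0.12 to 0.20 for Fech and -0.032 to 0.15 for Abcb6. The cause was not tested.

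Over all genes, fits with only the arrays compared called 1545 against 3303 for heme in Nrf2+/+ cells, 752 against 1523 in Nrf2-/- cells, 116 against 213 for the interaction and 317 against 1189 between genotypes under heme and LPS. Without Nrf2-/- LPS array a, 951 were called for heme in Nrf2-/- cells. The interaction had 500 without the arrays over 40%, 140 without Nrf2+/+ heme and LPS array c, 323 without Nrf2-/- heme and LPS array b and 135 without Nrf2+/+ LPS array b. Between genotypes under LPS 6 were called without the LPS-treated a arrays and without those over 40%, 3 without Nrf2+/+ LPS array a and 2 without array b, against 1.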
